A study of Mus musculus with 1666 samples.

Results

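The 33 genes described here are members of the hypoxia response and of glycolysis, and all 33 were found by symbol among the 49662 gene symbols measured in single cells of mouse embryonic whisker follicles. Cells came from a transgenic line that makes a nuclear photoconvertible protein, Kikume Green-Red. From E12.0 to E17.0 whole single follicles were photoconverted and ITGA6+ CD31- red cells were sorted, whereas at E11.5 ITGA6+ CD31- cells were sorted without photoconversion. RamDA-seq, which reads total RNA along whole transcripts, gave values for 1614 cells on 18 library plates from 7 stages. These were E11.5, then E12.0, E13.0 and E13.5, then E14.0, E15.0 and, last, E17.0. No embryo, litter, strain or sex is named, so a stage counts as 1 sample, and p-values measure the spread between stages. Epithelial cells were those with Krt5 of at least 10, Trp63 of at least 10 and Col3a1 under 50 TPM (a level scaled for gene length and for the total of the cell), which took 1035 cells. Fibroblast-like cells, with Col3a1 of at least 50, Pdgfra of at least 10 and Trp63 under 10 TPM, were 417, and 162 cells met neither rule.

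Glycolysis turns glucose into pyruvate in the cytosol, and lactate dehydrogenase turns pyruvate into lactate when mitochondria do not use it. When oxygen is low, the prolyl hydroxylases Egln1 and Egln3 no longer mark HIF-1 alpha (Hif1a) and HIF-2 alpha (Epas1) for destruction, and these factors bind short ACGTG or GCGTG cores near glucose transporters, glycolytic enzymes, Vegfa, Bnip3 and other targets. HIF-1 alpha is controlled mainly at the protein level, which RNA does not show. Whisker follicles form from placodes of the embryonic epidermis that grow down into the dermis.

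The sequences that go with this are the promoters. RefSeq windows on GRCm38.p6 (250 bases before to 50 bases after a gene's start) matched 29 of the 33 members, those without a window being Ndufa4l2, Slc2a3, Bnip3l and Epas1. Searched on both strands, ACGTG was in a window of 21 of the 29 (72.4%), against 21.8% of the 27025 genes with a window and 27.8% of the 11618 of these that were tested in epithelial cells. Either core was in 27 members (93.1%), against 46.7% of all genes and 64% of tested genes, and at least 2 matches were in 22 members (75.9%), against 22.9% and 35.5%. A gene with several windows counted by its best one, the palindrome CACGTG counts once on each strand, and CACGCGTG holds overlapping matches. Gpi1 and Tpi1 held no match. The 250 bases before the start are shown for 4 members with a large step between E13.5 and E14.0 (Egln3, Slc16a3, Ankrd37, Bnip3) and 2 that follow Ndufa4l2 closely from cell to cell (Pgk1, Ldha), read 5′ to 3′ on the gene's strand with the cores in capitals. These are chosen examples, and Ldha held the most matches of any member (7 in its best window). Of other members that follow Ndufa4l2 closely, Pkm held 2, Aldoa and Pfkl held 1 each, and Tpi1 and Gpi1 held 0. A match is a description of these letters, not a shown binding site.
Egln3 (chr12:54203875-54204124, minus strand): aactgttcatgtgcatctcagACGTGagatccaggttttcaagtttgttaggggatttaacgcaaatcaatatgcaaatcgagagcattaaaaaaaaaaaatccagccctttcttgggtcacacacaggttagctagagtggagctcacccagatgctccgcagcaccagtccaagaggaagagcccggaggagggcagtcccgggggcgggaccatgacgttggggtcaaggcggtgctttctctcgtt
Slc16a3 (chr11:120948817-120949066, plus strand): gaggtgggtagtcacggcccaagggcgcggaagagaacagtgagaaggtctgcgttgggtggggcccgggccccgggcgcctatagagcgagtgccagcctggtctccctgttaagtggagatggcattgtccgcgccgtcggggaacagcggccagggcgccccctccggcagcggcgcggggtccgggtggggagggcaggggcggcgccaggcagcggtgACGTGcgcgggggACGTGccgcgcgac
Ankrd37 (chr8:45999851-46000100, minus strand): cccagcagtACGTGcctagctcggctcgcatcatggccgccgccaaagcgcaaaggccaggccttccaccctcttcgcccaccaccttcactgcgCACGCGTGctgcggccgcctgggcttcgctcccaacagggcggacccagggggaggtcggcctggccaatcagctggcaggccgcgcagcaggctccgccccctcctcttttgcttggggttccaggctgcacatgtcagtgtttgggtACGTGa
Bnip3 (chr7:138909507-138909756, minus strand): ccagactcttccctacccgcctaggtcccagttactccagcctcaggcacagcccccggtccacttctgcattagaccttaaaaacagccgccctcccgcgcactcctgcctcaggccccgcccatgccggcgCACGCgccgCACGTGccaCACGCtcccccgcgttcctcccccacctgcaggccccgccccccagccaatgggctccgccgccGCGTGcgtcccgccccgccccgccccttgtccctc
Pgk1 (chrX:106186850-106187099, plus strand): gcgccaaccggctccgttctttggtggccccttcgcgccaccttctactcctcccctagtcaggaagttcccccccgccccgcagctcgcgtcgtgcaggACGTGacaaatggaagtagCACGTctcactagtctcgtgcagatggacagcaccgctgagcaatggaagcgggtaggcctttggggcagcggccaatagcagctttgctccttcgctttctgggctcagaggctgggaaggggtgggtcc
Ldha (chr7:46845554-46845803, plus strand): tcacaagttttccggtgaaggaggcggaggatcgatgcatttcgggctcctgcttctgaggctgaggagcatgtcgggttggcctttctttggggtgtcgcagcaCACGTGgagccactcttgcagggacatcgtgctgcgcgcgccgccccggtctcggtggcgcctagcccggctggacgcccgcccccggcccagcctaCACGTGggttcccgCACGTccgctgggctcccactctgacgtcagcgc
In these stretches Ldha holds 5 ACGTG matches, Bnip3 holds 2 ACGTG and 3 GCGTG matches, Ankrd37 holds 2 of each, Pgk1 and Slc16a3 hold 2 ACGTG matches each and Egln3 holds 1.

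The classes matched their names in the summed level of markers other than those that defined them. Summed levels of 6 other basal epidermis markers, the sort marker Itga6 among them, were 577 to 1211 TPM in epithelial cells and 16.5 to 95.5 TPM in fibroblast-like cells of stages with at least 10 cells. Those of 6 other fibroblast markers were 12.9 to 175 TPM in epithelial cells and 822 to 3746 TPM in fibroblast-like cells. The fibroblast-like class was mixed by single cells. In it, 115 of 417 cells held at least 3 pericyte, endothelial, melanocyte, nerve and Schwann cell, immune or erythroid markers of 1 type at 10 TPM or more. These were 55 of 210 cells at E13.0, 34 of 126 at E15.0 and 22 of 46 at E17.0. Among epithelial cells 32 of 1035 did. The median number of genes detected in a cell was 16497 to 19489 over the stages in epithelial cells, and depth is unknown because TPM keeps none. Epithelial cells numbered 54, 267, 53, 159, 144, 178 and 180 in stage order, on 1, 3, 3, 2, 2, 4 and 3 plates. Plate 1 of E15.0 held only 10 of them beside 73 fibroblast-like cells. It stood apart from the other E15.0 plates for many members, as given below, and each plate of a stage has equal weight in its mean. The number in its cell titles, by which plates are told apart here, is the one that E13.0 plate 1 carries. The other E15.0 plates carry the numbers of the 3 E17.0 plates, and no other number recurs between stages. What these numbers stand for is not given in the labels. Where plates of 2 stages carry different numbers, stage and number cannot be told apart. Without that plate the counts of members called below were 2 rising, 0 falling, 19 higher in epithelial cells and 1 lower.

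Ndufa4l2 had the largest ratio between its highest and lowest stage mean among the 33 members (74.9). Its product is a paralogue of the respiratory chain protein Ndufa4, is induced by HIF-1 and is known to lower complex I activity, and its gene lies at chr10:127514967-127517154 on the plus strand (GRCm38, protein coding). Its mean level in epithelial cells was 0.677, 1.18, 3.80, 17.46, 29.6, 50.8 and 47.4 TPM at the 7 stages in order. Each stage from E12.0 to E15.0 stood above the one before it in stage mean, and the plates of E12.0 (0.827 to 1.36 TPM), E13.0 (3.10 to 4.32), E13.5 (15.3 to 19.6) and E14.0 (25.97 to 33.1) did not overlap. The E15.0 plates spanned 16.1 to 80.03 TPM, with plate 1 at 16.1 and the others from 50.4, and the E17.0 plates (37.2 to 54.8) lay within that span. The share of epithelial cells with at least 1 TPM was 9.26% (exact Clopper-Pearson 95% interval 3.08 to 20.3%, counting error only) at E11.5 and 84.8% at E15.0. The slope was 1.0 log2(TPM + 1) per day (SE 0.19, limma, adjusted p = 0.0453). In fibroblast-like cells Ndufa4l2 was at 0 in all 14 cells of E11.5 (at most 21.4% of cells at 1 TPM or more by the limit of 3 counts, counting error only, which does not limit the share of cells expressing it), and had stage means of 0.448, 4.03, 2.55 and 6.48 TPM at the 4 later stages with at least 10 such cells.

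Ndufa4l2 is also known as a pericyte gene. The summed level of 8 pericyte markers in epithelial cells lay between 6.93 TPM (E11.5) and 39.02 TPM (E15.0), against 51.9 to 106 TPM in fibroblast-like cells of the 5 stages compared, and 0 of the 8 were at 0 in epithelial cells of any stage. Most of it in epithelial cells was Cspg4 and Notch3, and Cspg4 itself rose with day (slope 0.70, SE 0.13, limma, adjusted p = 0.0458). Rgs5 and Kcnj8, which define pericytes, were at most 0.438 and 0.062 TPM in any stage. Across epithelial cells none of the 6 pericyte markers detected widely enough correlated with Ndufa4l2 at 0.2 or more (highest Notch3, 0.0904). Only 0.535% of all genes did, so a count of 0 among these markers is near the background. The part of pericyte markers in the Ndufa4l2 slope was not tested.

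**Figure D1:**
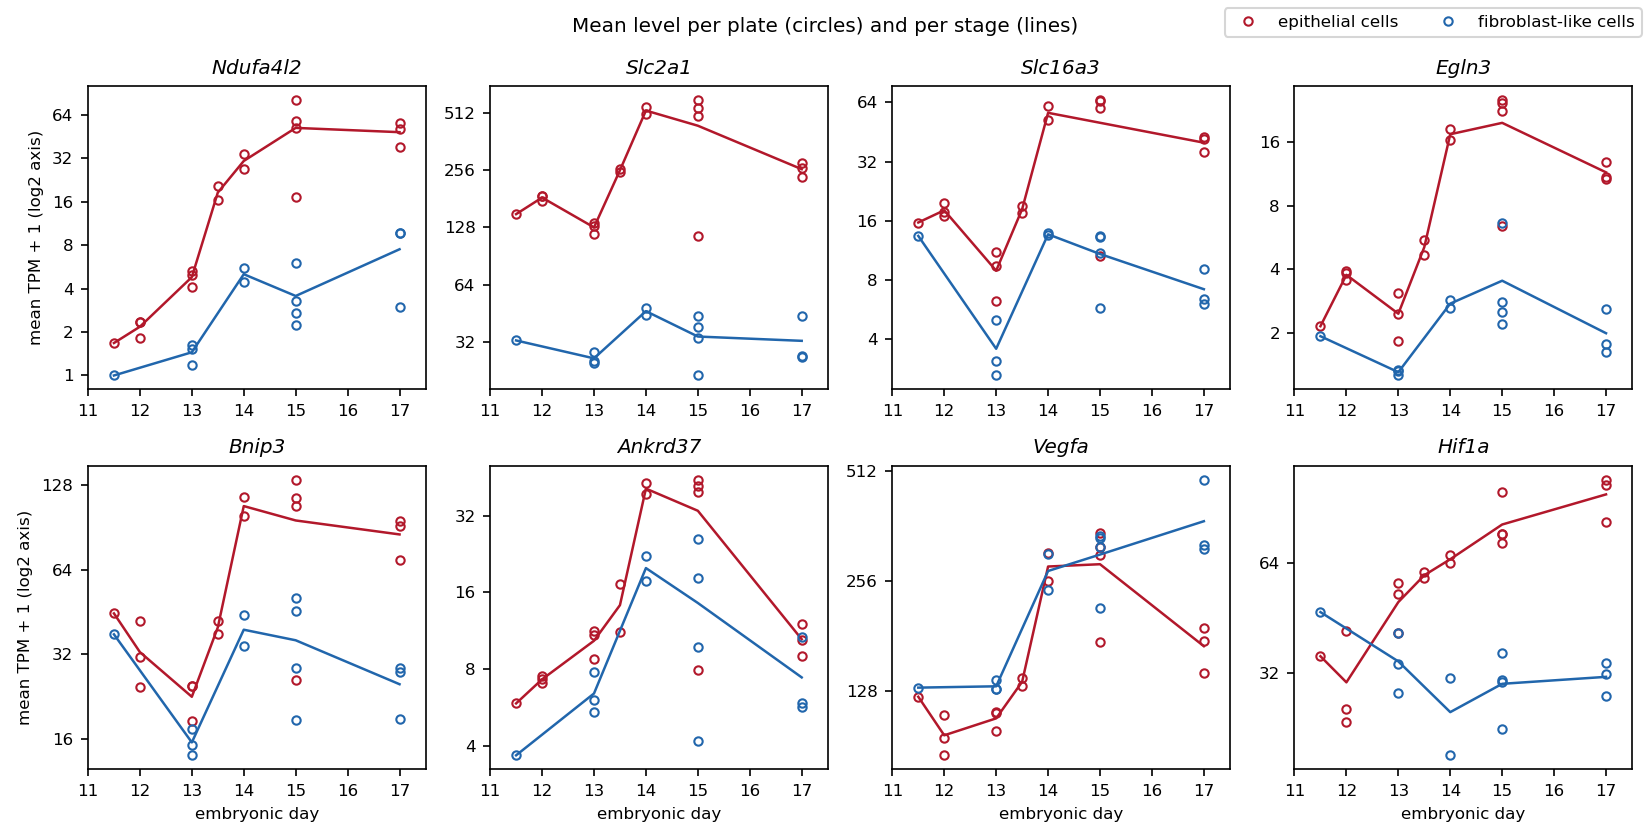
Mean level of 8 members by embryonic day in epithelial cells (red) and fibroblast-like cells (blue); circles are plates with at least 5 cells of the class, lines join means of stages with at least 10 such cells, and the axis is log2 of TPM + 1. Ndufa4l2 climbs to E15.0 in epithelial cells, Slc16a3, Egln3, Bnip3, Ankrd37 and Vegfa step up between E13.5 and E14.0, and where a red circle lies far below the others at E15.0 it is plate 1.

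Over the 7 stages 2 of the 32 members that passed the filter (a mean of 1 TPM) rose with embryonic day and 0 fell (limma, Benjamini-Hochberg adjusted p under 0.05). Over all genes 1.23% rose and 0.646% fell, 1.87% together. Epas1, at 0.977 TPM, was left out by the filter. At an unadjusted p under 0.05 the members numbered 13, against 18.9% of all genes. The second gene that rose was Hif1a, at 34.5, 29.1, 48.96, 58.2, 64.5, 80.5 and 97.6 TPM in stage order, with a slope of 0.31 (SE 0.05, limma, adjusted p = 0.0233). Its E17.0 plates (82.01 to 107 TPM) lay above its E12.0 plates (22.4 to 40.6). The Ndufa4l2 call was lost when any single stage other than E17.0 was left out, or plate 1 of E13.5, plate 2 of E14.0 or plate 1 of E17.0, and the Hif1a call when E11.5 or E15.0 was. E11.5 also differs from the later stages in its sort, without photoconversion, and the part of this in the slopes was not tested. Members rising numbered 0 without E11.5 or E15.0, 1 without any other stage up to E14.0 or without plate 1 of E13.5, 3 without plate 3 of E12.0, plate 2 of E13.5 or plate 2 or 4 of E15.0, 4 without plate 2 of E17.0 and 6 without E17.0. Over the 36 alternatives the adjusted p ran from 0.00523 to 0.156 for Ndufa4l2, past the threshold in 24, and from 0.0091 to 0.0874 for Hif1a, past it in 32. A curved course was called for 0 members and 0% of all genes by limma (unadjusted p under 0.05 for 9 members and 13% of genes).

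The glucose transporters had different courses. Slc2a1, the main transporter of epidermal cells, had means of 149, 182, 127, 254, 524, 436 and 257 TPM in stage order, with plates of 504 and 544 TPM at E14.0 and of 250 and 258 TPM at E13.5. At E15.0 its plate 1 had 113.8 TPM and the other plates 493 to 597 TPM. Slc2a3, a transporter of high affinity, was highest at E11.5 with 93.5 TPM, followed by 41.2, 5.43, 11.4, 17.7, 12.8 and 4.56 TPM. Its share of cells with at least 1 TPM was 26.7% at E17.0 against 97.4% at E12.0. The slopes were 0.22 for Slc2a1 (SE 0.13, limma, adjusted p = 0.394) and -0.59 for Slc2a3 (SE 0.19, limma, adjusted p = 0.157), so neither passed.

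The first enzymes of the pathway are present as several isoforms, each with its own course. Hexokinase traps glucose in the cell, and its product passes to the isomerase Gpi1, which lay at 149.9 to 244 TPM. Hk2, its inducible form, had 32.1, 37.1, 40.6, 24.2, 70.3, 51 and 29.8 TPM, whereas Hk1 stayed between 9.85 and 14.2 TPM. Phosphofructokinase makes the committed step. Its platelet form Pfkp had 1.97, 8.95, 14.7, 17.3, 38.4, 54.7 and 51.6 TPM, its muscle form Pfkm between 8.16 TPM (E11.5) and 4.51 TPM (E17.0), and its liver form Pfkl 74.6 to 149 TPM. The slope of Pfkp was 0.71 (SE 0.15, limma, adjusted p = 0.0583). Aldolase splits the sugar, and its C form Aldoc had 3.95, 4.25, 11.97, 14.3, 17.51, 25.7 and 25 TPM. The slope of Aldoc was 0.48 (SE 0.09, limma, adjusted p = 0.0507), just short of the threshold, and it passed in 15 of 36 alternatives. Aldoa was more abundant on this length-scaled measure, at 180 to 348 TPM, and its slope of 0.10 did not pass (SE 0.05, limma, adjusted p = 0.327).

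None of the abundant enzymes of the later steps passed the test. Gapdh, which oxidises the triose, was the most abundant member, with 2394, 2491, 1521, 1398, 1450, 1565 and 1578 TPM. Tpi1 (triose isomerase) lay at 91.5 to 130 TPM and Pgk1, which makes the first ATP, at 52.8 to 82.9 TPM. Pgam1, Eno1 and Pkm, the mutase, enolase and pyruvate kinase, lay at 89.2 to 195.5, 383 to 554 and 401 to 628 TPM. Each of these 6 genes had its lowest mean at E11.5, E13.0 or E13.5. Their slopes, between -0.12 and 0.04, did not pass. Gapdh, Pgk1, Eno1 and other members of this group have pseudogenes or near copies, and reads they share may have been split: Pgk1-rs7 was listed at 14 TPM beside 66.9 TPM for Pgk1 (means over stages).

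At the end of the pathway, the heart and muscle forms of lactate dehydrogenase had different courses, neither past the test. Ldhb, the form richest in oxidative tissue, had 115, 84.9, 59.5, 56.9, 37.5, 35.2 and 36.4 TPM. Ldha, the HIF target, had 353, 426, 272, 305, 381, 440 and 446 TPM. The slope of Ldhb was -0.30 (SE 0.07, limma, adjusted p = 0.0687) and that of Ldha 0.07 (SE 0.05, limma, adjusted p = 0.529). Slc16a3, the monocarboxylate transporter that exports lactate, had 14.7, 17.1, 7.90, 17.3, 55.6, 49.4 and 38.9 TPM. Pdk1, a kinase that closes the pyruvate dehydrogenase gate into mitochondria, ranged from 21.2 TPM at E13.0 to 49.1 TPM at E15.0.

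Of the oxygen sensing genes, Egln3 had 1.15, 2.76, 1.46, 4.09, 16.5, 18.8 and 10.5 TPM, and Egln1 lay at 11.49 to 24.8 TPM. Egln3, itself a HIF target, had 5.43 TPM on E15.0 plate 1 and 21.6 to 24.4 TPM on the other E15.0 plates. Epas1 stayed at 0.387 to 1.73 TPM and was at 1 TPM or more in at most 35.4% of epithelial cells of a stage. Car9, the carbonic anhydrase used as a hypoxia marker in tumours, stayed at 2.60 to 7.12 TPM, and Adm, the vasodilator adrenomedullin, at 0.458 to 7.24 TPM with at most 30.6% of cells at 1 TPM or more. Vegfa, the main angiogenic factor, had 122, 95.5, 106, 134, 279, 283 and 168 TPM and was detected in every epithelial cell. Bnip3 and Bnip3l, receptors for the removal of mitochondria, lay between 21.6 TPM (E13.0) and 107 TPM (E14.0) for Bnip3, and between 63.9 TPM (E12.0) and 115 TPM (E17.0) for Bnip3l. Ankrd37 (4.86 to 39.9 TPM), the collagen hydroxylase subunit P4ha1 (22.03 to 45.8 TPM) and the mTOR inhibitor Ddit4 (23.02 to 110 TPM) each had their highest mean at E14.0.

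**Figure D2:**
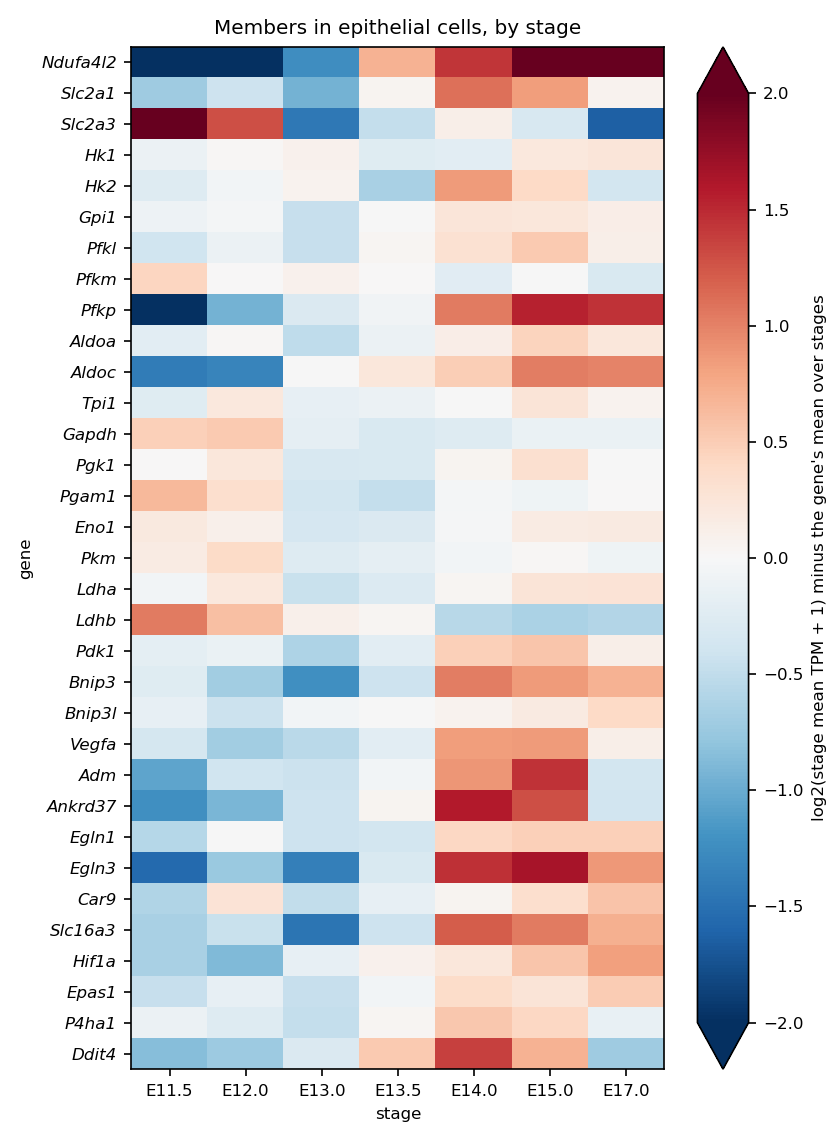
Level of each of the 33 members in epithelial cells by stage, as log2(stage mean TPM + 1) minus the gene's mean over the 7 stages; colours stop at 2 in either direction. Most members are red at E14.0 and E15.0, Slc2a3 and Ldhb are red at E11.5 and E12.0, and Ndufa4l2, Pfkp and Aldoc go from blue to red across the stages.

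Of the 32 members past the filter, 20 had their highest stage mean at E14.0 or E15.0, a position that 20.8% of all genes held. Without plate 1 of E15.0, an alternative chosen after seeing the data, these were 23 members and 20.2% of genes. E11.5 was highest for 5 members, E12.0 for 2, E17.0 for 5 and the other stages for 0. The step up to these levels lay between E13.5 and E14.0, stages with 2 plates each that carry different title numbers. All E14.0 plates lay above all E13.5 plates for 28 of 33 members and below for 2 (Pfkm and Ldhb). Over all genes this held for 31.4% and 23.6%, so it is no test of the stages. Egln3 had 15.5 and 17.4 TPM on the E14.0 plates, against 3.68 and 4.49 TPM on the E13.5 plates (log2 fold 1.78 of the means + 1 TPM). Slc16a3 had 50.9 and 60.4 TPM on the E14.0 plates, against 16.5 and 18.1 TPM at E13.5 (1.63). The plates of these stages did not overlap for either gene, and the 2 plates of a stage may be technical repeats. Hk2 had 63.97 and 76.6 TPM on the E14.0 plates, against 23.8 and 24.6 TPM at E13.5 (1.5), and Bnip3 98.8 and 115 TPM at E14.0, against 36.7 and 41.1 TPM at E13.5 (1.44). Ankrd37 followed with 1.52, Pfkp with 1.11, Vegfa with 1.05 and Slc2a1 with 1.04. Among glycolytic enzymes the value was 0.36 for Pgk1, 0.32 for Ldha, 0.26 for Aldoa and 0.05 for Gapdh. The median over the members was 0.43, beside 0.03 over 23962 genes. Plate 1 of E15.0 (10 epithelial cells) and plate 1 of E13.0 (23) share a title number and lie on either side of this step. Of 33 members, 19 were higher on the E15.0 plate and 14 lower, beside 47.6% and 52.4% of genes. Ndufa4l2, Egln3, Bnip3, Vegfa and Slc16a3 were among the 19, and Slc2a1, Hk2, Ankrd37, P4ha1 and Ddit4 among the 14.

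Between E17.0 and E12.0, with 3 plates each, the plates did not overlap for 17 members that were higher at E17.0 and 7 that were lower, beside 24% and 39% of all genes. The upper group was led by Ndufa4l2 (47.4 TPM at E17.0 against 1.18 TPM at E12.0, log2 fold 4.47), Pfkp (2.40), Aldoc (2.31), Hif1a (1.71), Egln3 (1.62), Bnip3 (1.39) and Slc16a3 (1.14). The lower group was Slc2a3 (-2.93), Ldhb (-1.20), Gapdh (-0.66), Pkm (-0.48), Hk2 (-0.31), Pfkm (-0.30) and Pgk1 (-0.23). Between E17.0 and E15.0, 0 members were higher at E17.0 on all plates and 2 were lower, Adm (1.34 TPM at E17.0 against 7.24 TPM at E15.0) and Pdk1 (35.9 TPM at E17.0 against 49.1 TPM at E15.0), where 6.58% and 11% of all genes did. This count rests on plate 1 of E15.0. Without that plate, an alternative chosen after seeing the data, 1 member was higher at E17.0 on all plates (Epas1) and 19 were lower, beside 9.91% and 18.8% of all genes. Slc2a1, Hk2, Aldoa, Pgk1, Ldha, Bnip3, Vegfa, Egln3 and Slc16a3 were among the 19. Ankrd37 had 7.99 to 11.04 TPM on the E17.0 plates, against 38.7 to 43.3 TPM on plates 2 to 4 of E15.0 and 6.96 TPM on its plate 1. Ddit4 had 21.9 to 31.65 TPM on the E17.0 plates, against 81.3 to 91.4 TPM on plates 2 to 4 of E15.0 and 13.3 TPM on its plate 1.

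The 10 immediate early and stress genes, which respond to tissue handling, summed to 338, 438, 1326, 605, 732, 1854 and 621 TPM in stage order in epithelial cells. Their part in the member levels was not tested. Across epithelial cells none of the 10 correlated with Ndufa4l2 at 0.2 or more, where 0.535% of all genes did. A count of 0 is near that background. Their rho ran from -0.162 to 0.00712 with a median of -0.0933, beside a median of -0.0019 over all genes.

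Epithelial cells were then set against fibroblast-like cells of the same stage, over the 5 stages with at least 10 cells of each class. Of 32 members tested, 19 were higher in epithelial cells and 2 lower (limma on within-stage differences, adjusted p under 0.05). Over all genes 8.0% were higher and 13.3% lower. The median difference was 0.94 log2(TPM + 1) over the members and -0.10 over all 24166 genes. Of all 33 members, 18 were higher in epithelial cells in each of the 5 stages and 2 lower in each. The share of all genes that kept their direction was not computed, so this count has no background beside it.

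Slc2a1 showed the greatest difference. Its stage means were 149, 127, 524, 436 and 257 TPM in epithelial cells of these 5 stages in order, against 31.6, 25.2, 45.4, 33.1 and 31.4 TPM in fibroblast-like cells. The classes did not overlap, and the mean difference was 2.93 (SE 0.25, limma, adjusted p = 0.000905). Aldoc had 3.95 to 25.7 TPM in epithelial cells and 0.362 to 3.60 TPM in fibroblast-like cells over these stages (2.63, SE 0.53, limma, adjusted p = 0.018), with classes close at E11.5. Ndufa4l2 differed by 2.33 (SE 0.42, limma, adjusted p = 0.0128), from 0.75 at E11.5 to 3.87 at E15.0. Ddit4 (1.80), Egln3 (1.75), Slc16a3 (1.66) and Hk2 (1.41) followed. The pathway's main enzymes were higher as well: Aldoa 1.23, Pgk1 1.11, Pkm 1.06, Pgam1 1.01, Eno1 0.96, Pfkl 0.74, Gpi1 0.71 and Tpi1 0.63. Bnip3 (1.09), Pdk1 (1.02), Ankrd37 (0.82) and Ldhb (0.56) completed the higher group.

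Isoforms differed in direction. Pfkm was lower in epithelial cells at all 5 stages, with 4.51 to 8.16 TPM in epithelial cells against 10.2 to 14.5 TPM in fibroblast-like cells (-0.93, SE 0.15, limma, adjusted p = 0.00926). Hk1 was lower too, with 10.2 to 14.2 TPM in epithelial cells against 14.5 to 22.3 TPM in fibroblast-like cells (-0.57, SE 0.15, limma, adjusted p = 0.0411). The Hk1 call was lost in 13 of 28 alternatives, the omission of each of the 5 stages among them. Vegfa did not pass (-0.31, SE 0.18, limma, adjusted p = 0.253). It had 168 TPM in epithelial cells of E17.0 against 372 TPM in fibroblast-like cells, and close values at E14.0 and E15.0. Hif1a (0.93, SE 0.31, limma, adjusted p = 0.0793), Gapdh (0.70, SE 0.20, limma, adjusted p = 0.0512) and Ldha (0.44, SE 0.15, limma, adjusted p = 0.0787) were near the threshold. So were Pfkp (1.33, SE 0.44, limma, adjusted p = 0.0801) and Adm (0.757, SE 0.237, limma, adjusted p = 0.067). Slc2a3 (1.13, SE 0.65, limma, adjusted p = 0.26) ranged from 4.09 at E11.5 to -0.54 at E17.0.

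The difference was smallest at the first stage in the median over members. At E11.5, 18 of 30 members were higher in epithelial cells, with a median of 0.12, beside 52.6% of genes. This stage had 1 plate with 14 fibroblast-like cells and was the only one sorted without photoconversion, so stage and sort cannot be told apart there. At E13.0 to E17.0 these were 26 of 31, 29 of 33, 30 of 33 and 27 of 32, with medians of 0.69, 0.99, 1.17 and 1.25, beside 33.9 to 41.2% of genes. Gapdh had 2394 TPM in epithelial and 2449 TPM in fibroblast-like cells at E11.5, and 1578 TPM in epithelial and 584 TPM in fibroblast-like cells at E17.0. Whether the slope over days differed between classes was tested, and 0 members and 0% of genes passed (limma; 13 members and 14.6% of genes at an unadjusted p under 0.05). In fibroblast-like cells alone 0 members passed for a slope (limma; 10 members and 19.1% of genes at an unadjusted p under 0.05), beside 0.345% of genes called, 0.262% upward and 0.0832% downward.

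The class count rests on few stages. Without E11.5, 24 members were higher, and without E13.0, E14.0, E15.0 or E17.0 the count was 10, 7, 8 or 8. Plate 2 of E14.0 held 10 of the 19 fibroblast-like cells of its stage, and without it that stage fell under 10 such cells, so the count was again 7.

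**Figure D3:**
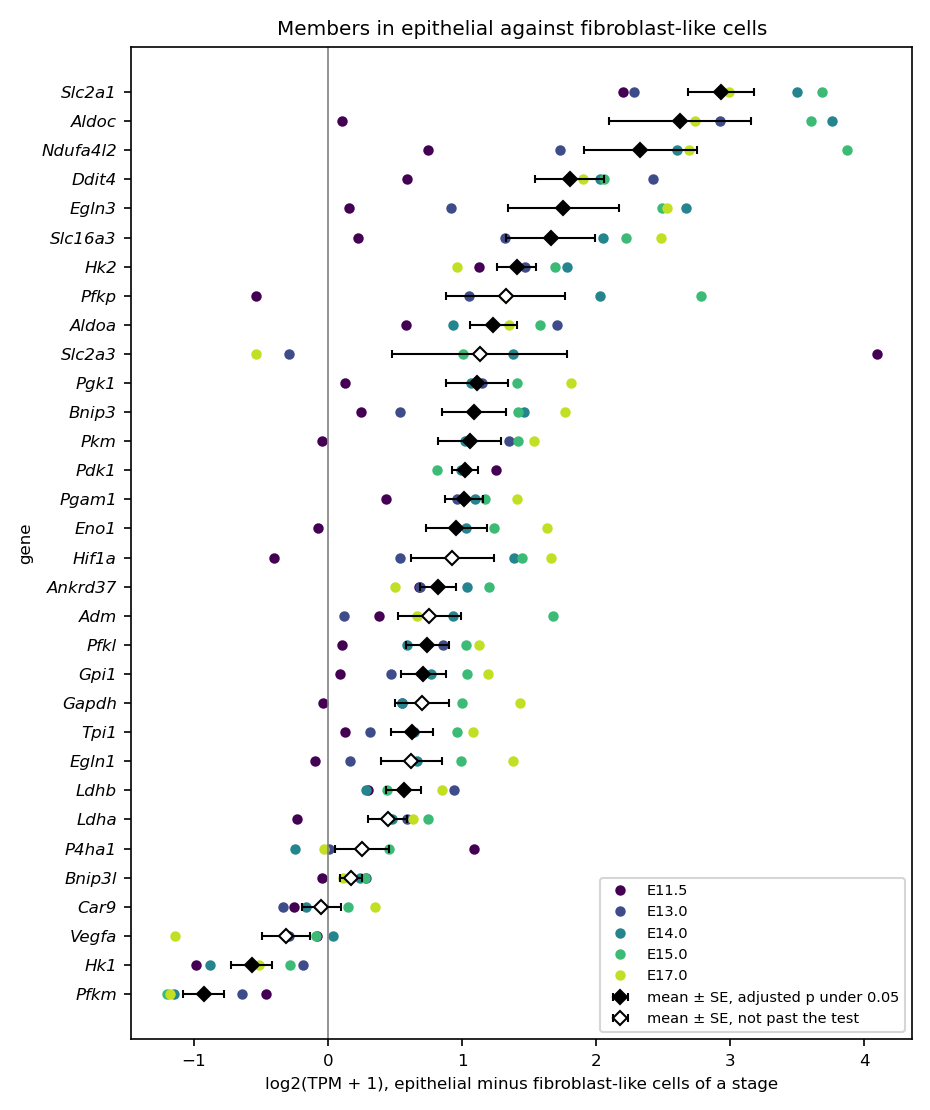
Difference between epithelial and fibroblast-like cells in log2(TPM + 1) for the 32 members tested, with 1 coloured point per stage and a black diamond for the mean over 5 stages with its standard error; filled diamonds passed the test. Slc2a1 sits between 2.20 and 3.68 in every stage, the E11.5 points lie near 0 for most glycolytic enzymes, and Pfkm and Hk1 lie below 0 throughout.

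Within the epithelium, cells that had more Ndufa4l2 also had more of the glycolytic enzymes. The measure was the Spearman correlation over the epithelial cells of a plate, with the number of genes seen in each cell held fixed, averaged over plates and then over the 7 stages (17 plates, 1019 cells, 28798 genes). The cells of a plate share library and depth, so it is given as a description. The members were also chosen with earlier results of these data known, so the shares over all genes beside them are no independent test. Of the 32 other members, 21 had a mean rho of 0.2 or more, which 0.535% of all genes had, and 30 were positive. A rho of -0.2 or less was held by 0 members and 0.0799% of genes. The members had a median of 0.265, beside -0.0019 over all genes. Aldoa (0.473), Pgk1 (0.451), Pfkl (0.423), Ldha (0.421), Tpi1 (0.407), Gpi1 (0.402) and Pkm (0.390) held the first 7 places among all genes. Mif, a cytokine gene induced by HIF-1, was next (0.369), then Pfkp and Slc2a1 (0.364 each). The lowest were Frmd6 (-0.267), Bnc2 (-0.266), Bnc1 (-0.265), Slc7a1 (-0.255) and Lef1 (-0.251).

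Not every member followed. Car9 (-0.0624), Epas1 (-0.0352) and Adm (0.0244) were near 0, and Slc2a3 (0.101), Hk2 (0.133), Pfkm (0.138), Hif1a (0.151), P4ha1 (0.158), Egln1 (0.168), Bnip3l (0.193) and Ldhb (0.195) lay under 0.2.

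The values were higher from E13.5 on. The median rho over the members was 0.0849, 0.0414, 0.144, 0.285, 0.492, 0.355 and 0.432 in stage order. At the first 2 stages few cells had Ndufa4l2, 9.26% and 22.5% at 1 TPM or more in stage order, and the part of this in the lower values was not tested. Aldoa had 0.147, 0.147, 0.283, 0.688, 0.657, 0.556 and 0.639. Slc2a1 reached 0.731 at E17.0 and Ddit4 peaked at E13.0 with 0.601. Hif1a had -0.0324 at E13.5 and, at the 3 later stages, 0.115, 0.360 and 0.468.

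In fibroblast-like cells (8 plates of E13.0, E15.0 and E17.0) 0 of 32 members reached a mean rho of 0.2, where 0.920% of 28139 genes did. At -0.2 or less lay 0 members and 0.974% of genes, so both counts of 0 are near the background. The median over the members was 0.0325 and the highest were Egln1 (0.171), Vegfa (0.170) and Pfkp (0.167). By stage, rho ran from -0.1665 (Hif1a) to 0.231 (Slc2a3) at E13.0. At E17.0 it ran from -0.25 (Ddit4) and -0.228 (Egln3) to 0.375 (Pfkp) and 0.384 (Vegfa). The leading genes were Slit2 (0.349), Chrdl1 (0.343), Elovl5 (0.340), Trim16 (0.329) and Ednrb (0.319). Ndufa4l2 was at 1 TPM or more in 10.9%, 22.2% and 43.5% of the fibroblast-like cells of these 3 stages, and fewer cells and stages entered, so the classes were not compared by a test.

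**Figure D4:**
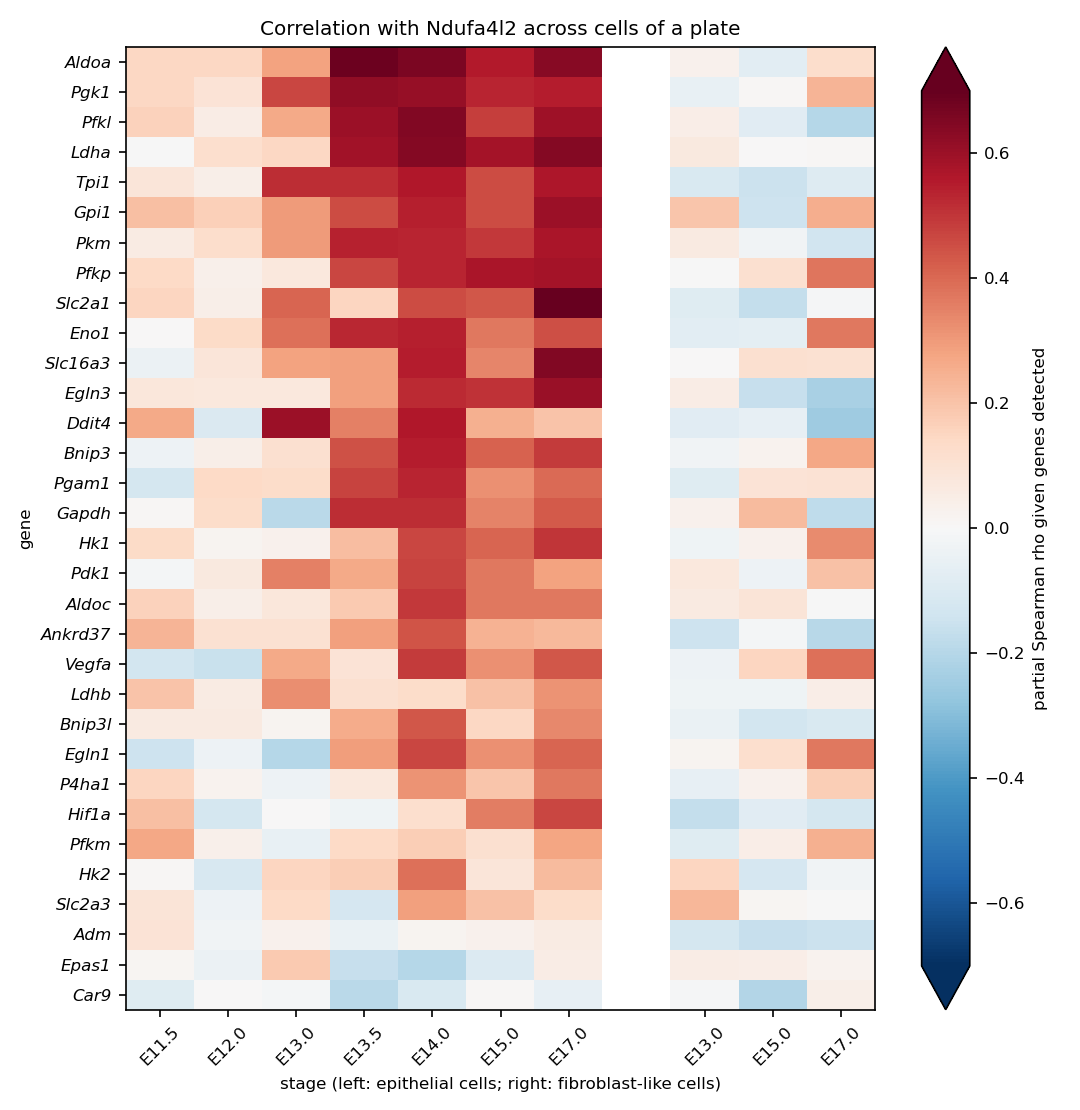
Correlation of 32 members with Ndufa4l2 across the cells of a plate, by stage, in epithelial cells (7 columns on the left) and fibroblast-like cells (3 columns on the right); colour is the partial Spearman rho given genes detected. Red deepens from E13.5 on for the glycolytic enzymes in epithelial cells, Adm, Epas1 and Car9 stay pale, and the right-hand columns are pale or mixed.

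The members also followed each other. Over epithelial cells (15 plates with at least 20 such cells, 995 cells), 307 of 528 member pairs had a rho of 0.2 or more (58.1%), with a median of 0.249. Among the 28 members with a mean of 10 TPM or more in these cells the share was 72.8% of pairs, beside 1.22% of the pairs of all genes at that level. At 50 TPM or more it was 77.2% of the pairs of 17 members, beside 4.32% of all pairs. Here too the members were chosen with earlier results known, so these shares are a description. The closest pairs were Aldoa with Eno1 (0.734), Pgk1 with Ldha (0.713), Eno1 with Pkm (0.707) and Aldoa with Ldha (0.701). Targets outside glycolysis joined: Slc16a3 with Ldha had 0.616, Bnip3 with Pfkl 0.61, Egln1 with Pgam1 0.578, Vegfa with Slc2a1 0.561, P4ha1 with Slc2a1 0.541 and Ankrd37 with Ddit4 0.508. Slc2a3 and Hif1a each had 1 partner at 0.2 or more, and Adm, Car9 and Epas1 had 0. In fibroblast-like cells (5 plates, 303 cells) 48 of 528 pairs reached 0.2 (9.09%), with a median of 0.0397. At 10 TPM or more this was 20.3% of the pairs of 22 members, beside 1.88% of all pairs, and at 50 TPM or more 53.3% of the pairs of 10 members, beside 5.55%. The closest were Gapdh with Pgam1 (0.54), Gapdh with Pkm (0.505) and Tpi1 with Gapdh (0.503).

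**Figure D5:**
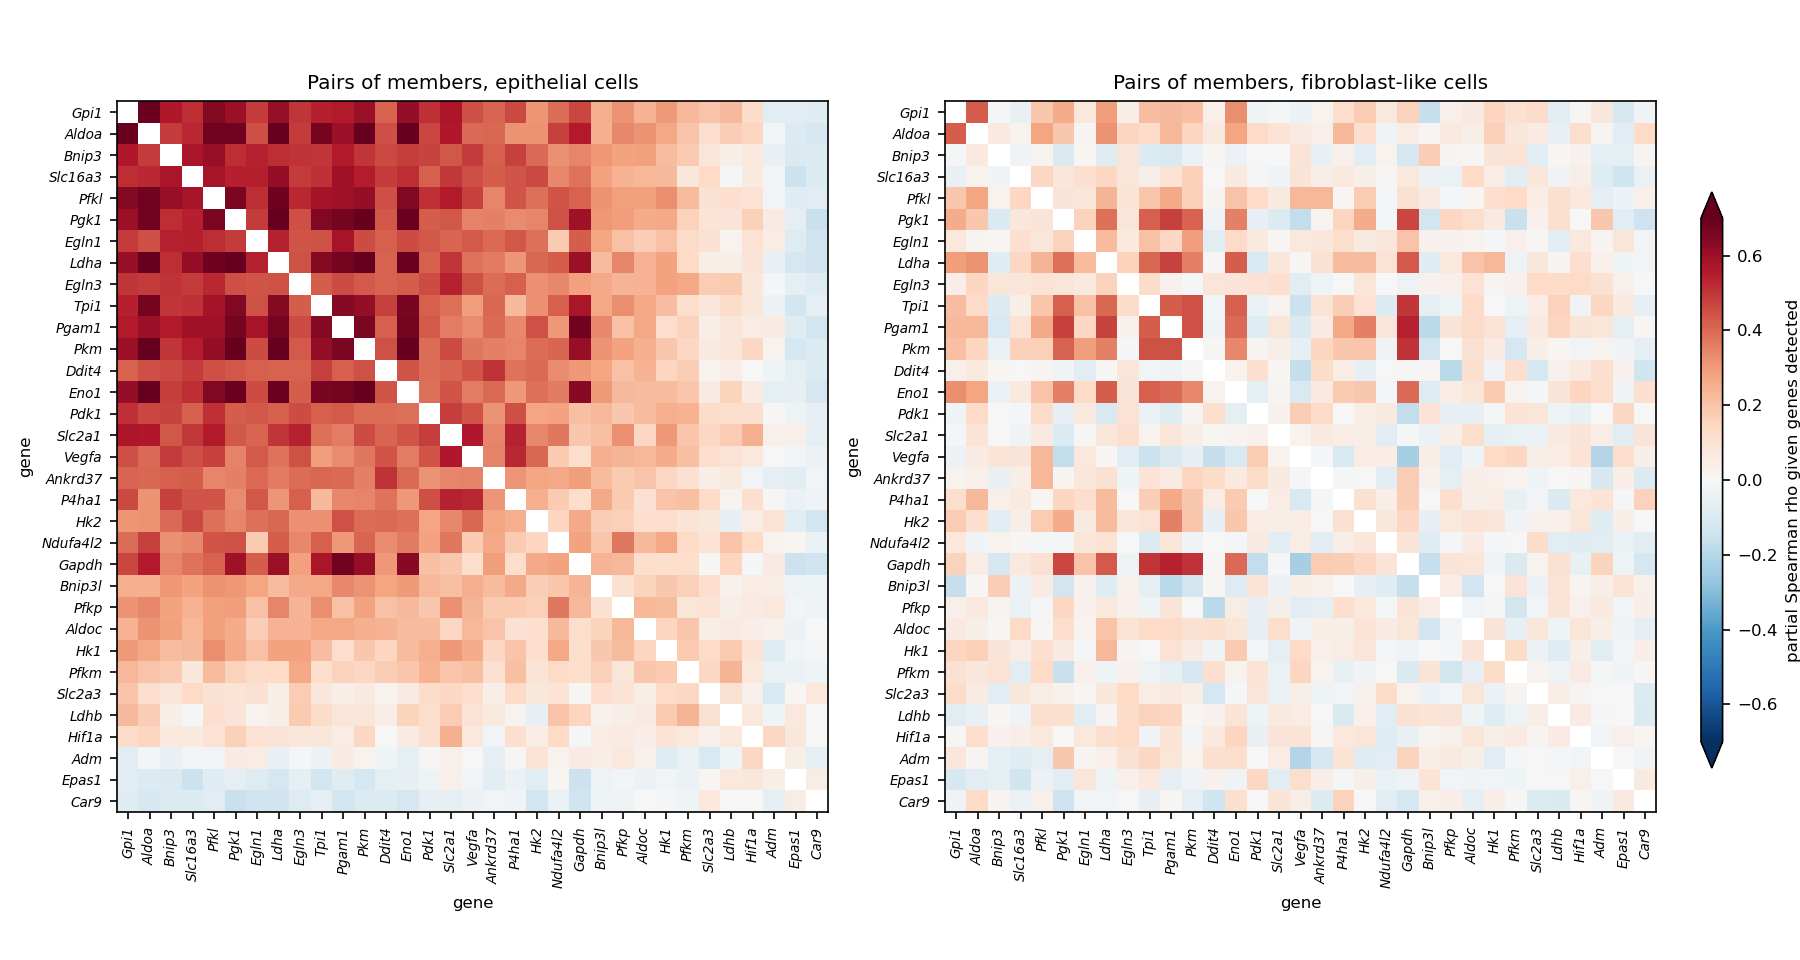
Correlation between pairs of the 33 members across the cells of a plate, in epithelial cells (left) and fibroblast-like cells (right), with genes ordered by their median rho in epithelial cells. A broad red block spans glycolytic enzymes and HIF targets on the left, and a small red group around Gapdh, Pgam1, Pkm, Tpi1, Pgk1, Ldha and Eno1 remains on the right.

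Other genes of the pathways were examined by the same measures, for which the shares over all genes were 8.0% higher and 13.3% lower in epithelial cells, 1.23% rising with day and 0.535% at a rho of 0.2 or more. Of 30 other hypoxia response genes, 9 were higher in epithelial than in fibroblast-like cells and 6 lower (limma), the higher ones led by Car12 (3.61, SE 0.27, limma, adjusted p = 0.00061), a membrane carbonic anhydrase, and the lower ones by Loxl2 (-2.67, SE 0.24, limma, adjusted p = 0.00109), a collagen cross-linker. None of the 30 passed the trend test in epithelial cells. In cell-to-cell correlation with Ndufa4l2, 8 of the 30 reached 0.2, Mif, Fam162a (0.316), P4ha2 (0.284), Ndrg1 (0.269) and Gys1 (0.254) at their head. Of 20 other glycolysis and pyruvate genes tested, 1 was higher in epithelial cells, the lactate transporter Slc16a1 (2.12, SE 0.39, limma, adjusted p = 0.014), and 6 lower, among them Eno2 (-1.30) and the pyruvate carrier subunit Mpc1 (-1.31). Mpc1 was also the 1 of these genes that rose with day in epithelial cells (slope 0.28, limma, adjusted p = 0.0194), and its rho with Ndufa4l2 was -0.122.

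Mitochondrial genes were examined as well. Of 26 oxidative phosphorylation subunits and 11 citric acid cycle genes, 0 had a rho of 0.2 or more, with medians of 0.00627 and 0.0127, and at 0.535% of all genes a count of 0 is near the background. Ndufa4, the respiratory chain paralogue of Ndufa4l2, was lowest of the subunits with -0.137 overall and -0.314 at E17.0. Cox4i2, the isoform of a complex IV subunit used at low oxygen, was highest of the subunits with 0.168 overall and 0.466 at E17.0. In the class comparison 3 of the 26 subunits were higher in epithelial cells and 0 lower, and 2 of the 11 cycle genes higher and 1 lower. Over all genes 8.0% were higher and 13.3% lower, so counts this small do not set either list apart.

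Among follicle genes, a rho with Ndufa4l2 of 0.2 or more was held by 3 of 13 outer root sheath and stem cell genes, Krt17 (0.291), Nfatc1 (0.270) and Lmcd1 (0.215), whose list had a median of 0.0949. It was held by 1 of 9 matrix and inner root sheath genes (Gata3, 0.257; list median -0.108), 1 of 8 basal epidermis markers (Krt5, 0.247; list median 0.0330) and 0 of 9 upper follicle and suprabasal genes (list median 0.0400). Over all genes 0.535% held it. Nfatc1 marks stem cells of the outer root sheath in adult follicles. Sox9 had 0.193. Lef1, a matrix and placode transcription factor, was at -0.251, and the 10 cell cycle genes lay between -0.145 and -0.0525.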

How the data were processed

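The members and the gene lists were chosen with earlier results of these data known. RamDA-seq libraries of single sorted cells were processed with bcl2fastq 1.0, HISAT2 2.0.4 on mm10 and featureCounts of Subread 1.5.0, per the submitters' processing notes, and the annotation release is not given in the sources used here. The deposited values are TPM per gene symbol and cell as made by the authors, and how genes that share reads were counted is not given. Of 1666 labelled cells, 52 of low quality have no values.

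Cells were put in classes by the marker rules. TPM was averaged over the cells of a plate, then over the plates of a stage. limma 3.58.1 in R 4.3.3 was fitted to log2(TPM + 1) of stage means of all genes with a mean of 1 TPM or more, and p-values were adjusted over all of them by Benjamini-Hochberg, with 0.05 as threshold. A pseudocount of 1 TPM understates changes of low genes. The class comparison used within-stage differences over 5 stages with at least 10 cells of each class. Partial Spearman correlations were averaged as Fisher z. Scripts ran in Python 3.11.15 with numpy 2.4.6, pandas 2.3.3 and scipy 1.17.1 and were tested on simulated data. Named genes were the members, genes of the lists, and by correlation with Ndufa4l2 the 10 highest and 5 lowest in epithelial cells and the 5 highest in fibroblast-like cells with a mean of at least 5 TPM, predicted genes, pseudogenes, ribosomal, mitochondrial and small RNA genes passed over. Alternatives were the pseudocount, the filter, the scaling, the class rule, the rank of the stage, and the omission of each stage and plate.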

Additional observations from a re-analysis of the deposited data

Results flagged for a closer look

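Over the 4 plates of E15.0, 66 sets of plate means (33 members in each class) were examined for a plate that lay apart from the others by Dixon's criterion, and 14 met it. Chance meets it in about 1 of 20 sets when sets are independent and plate means have like spread. Here the members follow each other, and plate 1 held 10 epithelial cells beside 53 to 58 on the others, so that rate is no measure of the excess. In 11 of the 14 sets plate 1 was the lowest, in epithelial cells. Among glycolytic enzymes these were Hk2 (23.45 TPM, the other plates 58.58 to 61.43), Gapdh (1266 TPM, the others 1645 to 1693), Pgam1 (57.6 TPM, the others 131.9 to 140.6), Eno1 (426.6 TPM, the others 572.5 to 592.6), Pkm (317.8 TPM, the others 516.7 to 554) and Ldha (293.8 TPM, the others 473.2 to 506.2). Among other hypoxia response genes these were Ankrd37 (6.956 TPM, the others 38.72 to 43.31), Egln3 (5.431 TPM, the others 21.55 to 24.42), Slc16a3 (9.578 TPM, the others 59.23 to 65), P4ha1 (20.71 TPM, the others 48.56 to 49.68) and Ddit4 (13.32 TPM, the others 81.26 to 91.44). Epas1 was highest on that plate (1.961 TPM, the others 1.021 to 1.147). Hif1a was highest on plate 4 (99.17 TPM, the others 71.45 to 75.77). In fibroblast-like cells Egln3 was highest on plate 2, which held 20 of them (5.588 TPM, the others 1.205 to 1.791).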

How the results depend on the processing

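The class comparison pairs the cell classes within a stage. No further pairing was possible in the fits because each stage is 1 sample in every fit and replicate numbers only name its cells. For E17.0 against E15.0, 3 plates of each stage share title numbers. Deviations of same-numbered plates correlated at 0.0672 to 0.0822 across genes, each higher than with the other numbers but under 0.1. Taken as a replicate block, chosen after seeing the data, 2 members were higher at E17.0 in every pair and 25 lower, beside 17.2% and 32% of all genes. Over all plates these were 0 and 2, and without plate 1 of E15.0 they were 1 and 19. Slopes in epithelial cells were called for 2 members upward and 0 downward, and for 443 genes. Members rising numbered 1 with a pseudocount of 0.1 TPM, 0 with no filter, 4 with a pseudocount of 5 TPM or a filter at 10 TPM, and 5 with protein-coding genes rescaled (an upward shift of the median gene by 1.23 to 1.32 log2 in every stage) or with the rank of the stage, these last also giving 1 falling. Genes called numbered 30 with no filter, 691 with the mean of log values and 1412 with the rank of the stage. With 1 stage or plate left out, the counts were 39 to 517 genes, 0 to 6 members rising and 0 to 1 falling. In the class comparison (19 members higher, 2 lower, 5152 genes) the members higher were 8 with no filter, the members lower 1 with no filter, a filter at 10 TPM, median-of-ratios factors or cells with markers of other types left out, and the genes 2793 with the filter at 10 TPM. With 1 stage or plate left out these were 7 to 24, 1 to 2, and 2267 to 7087. Genes whose slope differed between the classes (0) numbered 6 with a pseudocount of 5 TPM and 0 to 1 with 1 stage or plate left out. Genes called for a slope in fibroblast-like cells (83) numbered 37 with that pseudocount and 0 to 2 with 1 left out. Members correlated with Ndufa4l2 at 0.2 or more in fibroblast-like cells (0) numbered 4 without cells that hold markers of other types, and 0 to 3 with 1 stage or plate left out. In epithelial cells the number was 20 to 24 over all alternatives run.

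Slopes that did not pass turned negative with the mean of log values for Eno1 (-0.019), Hk1 (-0.03335), Hk2 (-0.09816), P4ha1 (-0.04839), Pgk1 (-0.02332) and Tpi1 (-0.002977). With 1 stage or plate left out they ran from -0.002052 to 0.5865 for Ddit4, -0.02276 to 0.2031 for Hk2, -0.009 to 0.0446 for Pgk1 and -0.02261 to 0.06486 for Eno1. The class difference of P4ha1 was -0.03237 with the mean of log values, and that of Car9 0.01468 with median-of-ratios factors, 0.1242 with a stricter class rule and -0.149 to 0.0217 with 1 left out. None of these passed the test. The causes were not tested. Requiring 12000 genes per cell removed 0 epithelial cells, and the rank of the stage has no counterpart in the class comparison. Depth is unknown, so low members such as Epas1 and Adm carry no counting interval on their level.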

Other observations

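Cells of neither class that held at least 3 markers of another cell type at 10 TPM or more, a grouping made after the data were seen, also differed in member levels. Ndufa4l2 averaged 62.6 TPM in 11 cells with Merkel cell markers and 59.3 TPM in 12 cells with pericyte markers. It averaged 2.11 TPM in 48 cells with endothelial markers and was at 0 in 10 cells with immune markers. Epas1 averaged 94.5 TPM in the cells with endothelial markers and 48.6 TPM in those with pericyte markers. Adm averaged 31.3 TPM and Slc2a1 419 TPM in the cells with endothelial markers, and Slc2a3 128 TPM in those with pericyte markers. These few cells come from several plates and stages, and no test was made.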
